A study of Rattus norvegicus with 56 samples.

Results

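Livers of male control rats were compared at zeitgeber time 16 (ZT16, in the dark phase, when rats are active) and at ZT4 (in the light phase, when they rest). The 6 libraries were chosen by their labels for sex, study group and time, 3 at each time, out of 56 liver libraries in the series. The rats were Sprague-Dawley offspring killed at day 180. They were kept under 12 h of light a day and belonged to the control group (CON), whose dams stayed on regular chow. Where CON males were set against other rats, those were CON females, males whose dams and later themselves had a Western diet and 25% fructose water, begun at gestation day 11 (HFhf), and males of the IUGR-HFhf group. The dams of that last group received 50% of their calories from gestation day 10 until birth and the HFhf diet afterwards. Feeding before the livers were collected is not given in the sources used here, and the labels name no litters.

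In mammals the circadian clock of each cell is a feedback loop. The proteins BMAL1 (gene Arntl), CLOCK and NPAS2 bind E-box sequences and switch on the period (Per) and cryptochrome (Cry) genes, whose proteins then block them. The nuclear receptors REV-ERB alpha and beta (Nr1d1 and Nr1d2) repress Arntl and Npas2 through ROR elements. The transcription factors DBP and TEF carry the rhythm to other genes through D-box sequences, where NFIL3 competes with them. In the liver this timing meets the rhythm of feeding in the control of glucose, lipid, bile acid and heme metabolism.

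The 3 libraries at ZT16 held 5554976, 6581847 and 9049458 counted reads, and the 3 at ZT4 held 6427857, 6898852 and 7097679, within the range of 5549530 to 19065339 over the series. Values are given as CPM (counts-per-million), with library sizes scaled by TMM. The libraries matched their labels for sex: the Y-linked Eif2s3y lay between 33.6 and 42.8 CPM in them and at no more than 0.0516 CPM in any female library. They also matched their labels for tissue, since albumin (Alb) took 93800 to 109000 CPM and the skeletal muscle actin Acta1 at most 0.132 CPM. Summed hepatocyte markers were 174000 to 187000 CPM at ZT16 and 173000 to 190000 CPM at ZT4. Of 14 marker lists 12 had no called member, where 5.35% of all genes tested were called. Some lists had few tested members, with 1 for B cells, 3 for neutrophils and 3 for pancreatic acinar cells. At that share short lists mostly hold no call, so this count says little about cell make-up. Summed pericentral hepatocyte markers were 2340 to 3220 CPM at ZT16 and 1290 to 2130 CPM at ZT4, and the summed skeletal muscle markers 1.73 to 2.13 CPM at ZT16 and 0.396 to 1.29 CPM at ZT4, with Myh4, Myh2, Ckm and Pvalb at 0. The summed levels of the other marker lists overlapped between the times. The called members were the stellate cell gene Lrat (log2 fold change 0.60, adjusted p = 0.0472) and the pericentral glutamate transporter Slc1a2 (1.94, adjusted p = 0.0376). In a bulk sample, fewer cells of a type and less RNA per cell cannot be told apart.

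Of 11047 genes tested, 591 differed between the times, which is 5.35% of them. A gene is called here when the adjusted p of edgeR's quasi-likelihood test over all genes was under 0.05. At ZT16 269 genes were higher (2.44%) and 322 lower (2.91%), with a median size of 0.78 and 0.74 on the log2 scale. The larger changes were few: 28 genes rose and 23 fell at least 4-fold, while 1.79% of the genes tested were called with at least a 2-fold change (0.842% higher and 0.95% lower). The median gene tested had a log2 fold change of 0.01. Unadjusted 95% intervals reached, at the median over genes, 0.42 to each side, so changes well under that size were mostly not detectable. Calls rest on the adjusted p, so larger changes can be missed too. Of 67 genes changed 1.5-fold in counts simulated from these libraries, 29.9% were called, though fewer genes were changed there than were called here. The CPM of the 2 times did not overlap for 583 of the 591 called genes, against 26.5% of all genes tested. With total counts in place of TMM scaling 63.3% of the calls were higher at ZT16, against 45.5% here, while RLE scaling gave 43.4%. With fewer libraries at 1 of the times the number of calls fell, to 413 without ZT16 replicate 1, to 332 without ZT4 replicate 3 and to values between these without ZT16 replicate 2 or 3 or ZT4 replicate 1 or 2.

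**Figure D1:**
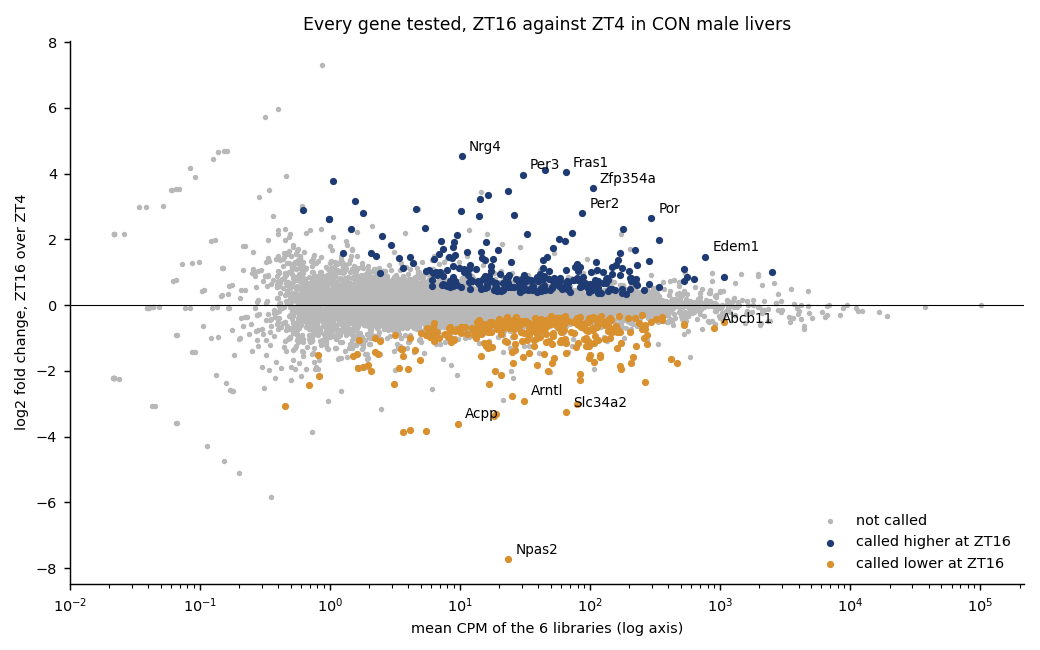
Log2 fold change of ZT16 over ZT4 (vertical axis) against the mean CPM of the 6 libraries (horizontal log axis) for the genes tested, with the 269 genes called higher at ZT16 in blue, the 322 called lower in orange and the others in grey. Npas2 lies lowest of the called genes at -7.72 and Nrg4 highest at 4.53, and genes with a read in none of the 6 libraries are not drawn.

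Transcripts of the clock's activators were lower at ZT16 and those of its repressors higher. Of the 21 genes tested in 4 lists of clock components, 9 were higher and 4 lower, so 13 were called, against 5.35% of all genes. Npas2, the partner of BMAL1 that can stand in for CLOCK, had 0.315, 0.132 and 0.203 CPM at ZT16, against 45.2, 47.5 and 47.7 CPM at ZT4. It was almost silent at ZT16, with 5 reads over the 3 libraries, against 1047 at ZT4, a ratio of 0.00448 (95% counting interval 0.00145 to 0.0105). Its log2 fold change was -7.72 (SE 1.06, adjusted p = 9.63e-06). Arntl was 2.36, 8.82 and 9.95 CPM at ZT16, against 60.6, 54.5 and 48.6 CPM at ZT4. All 3 livers at ZT16 lay far under those at ZT4, and the log2 fold change was -2.91 (SE 0.63, adjusted p = 0.003). Clock changed less, with 80.1, 89.5 and 93.1 CPM at ZT16 and 142, 140 and 132 CPM at ZT4 (log2 fold change -0.65, SE 0.15, adjusted p = 0.00524; adjusted p = 0.0425 at most with 1 library left out). That call was lost with total counts in place of TMM scaling. Arntl2, a relative of BMAL1, overlapped between the times, with 1.52 to 2.50 CPM at ZT16 and 1.16 to 3.41 CPM at ZT4.

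Among the repressors 6 of 12 were higher at ZT16 and none lower (0 of 12), with a median log2 fold change of 1.09, against 0.01 over all genes. All 3 period genes were higher. Per3 had 63.8, 52 and 54.7 CPM at ZT16 and 3.27, 2.11 and 5.43 CPM at ZT4, with a log2 value of 3.97 for ZT16 over ZT4 (SE 0.74, adjusted p = 0.000545). Per2 reached 171, 167 and 119 CPM at ZT16, against 20.2, 19.8 and 25.6 CPM at ZT4 (2.80, SE 0.45, adjusted p = 6.81e-05). Per1 was 48, 51.3 and 61.2 CPM at ZT16 and 18.8, 8.58 and 8.66 CPM at ZT4 (2.16, SE 0.56, adjusted p = 0.014). For each of the 3 genes the lowest liver at ZT16 lay above the highest at ZT4. The cryptochromes changed less than that. Cry1 had 18.4, 24.6 and 24.7 CPM at ZT16, against 12.1, 6.47 and 7.63 CPM at ZT4 (1.38, SE 0.30, adjusted p = 0.00235). Cry2 had 45.8, 60 and 60.5 CPM at ZT16, against 34.9, 32.7 and 28.6 CPM at ZT4 (0.79, SE 0.20, adjusted p = 0.0105). Timeless, whose protein binds cryptochromes and acts at replication forks, was 30.4, 25.4 and 18.7 CPM at ZT16 and 6.40, 7.13 and 6.21 CPM at ZT4 (1.91, SE 0.30, adjusted p = 3.67e-05). The kinase genes Csnk1d and Csnk1e, which act on period proteins, overlapped between the times with log2 fold changes of 0.09 and -0.12, and the repressor Bhlhe40 did so at 0.47. Ciart, a repressor of BMAL1 and CLOCK, did not overlap, with 2.36, 0.921 and 1.02 CPM at ZT16 and 0.142, 0.264 and 0.388 CPM at ZT4, but rested on 32 and 6 reads and missed the threshold (2.32, SE 1.10, adjusted p = 0.247).

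The 2 REV-ERB genes differed in what they showed. Nr1d2 was 127, 92.6 and 98.9 CPM at ZT16, against 39.7, 38.8 and 63.1 CPM at ZT4 (1.17, SE 0.35, adjusted p = 0.0386). Nr1d1 had 40.8, 18.8 and 23.1 CPM at ZT16, against 23.2, 20.3 and 64.5 CPM at ZT4. Its 2 groups overlapped, and a single liver, ZT4 replicate 3, was the highest of the 6. The log2 fold change was -0.40 (SE 0.54, adjusted p = 0.783), and 0.33 without that library. Rorb had no read in these libraries, and Rora, Hlf and Bhlhe41 were not analysed here.

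Dbp, with Per3, showed the largest rises of the 21 clock genes. It was 139, 58.4 and 58.5 CPM at ZT16, against 3.56, 4.49 and 6.47 CPM at ZT4, a rise of 4.12 on the log2 scale (SE 1.02, adjusted p = 0.00988). ZT16 replicate 1 stood above the other livers at its time, though each of these was far above every liver at ZT4. Without that library the rise of Dbp was 3.59, under the 3.97 of Per3, so these 2 genes have no firm order. Tef had 96.8, 91.2 and 89.1 CPM at ZT16 and 20.1, 23.0 and 25.0 CPM at ZT4 (2.02, SE 0.38, adjusted p = 0.000474), with little spread within either time. Their antagonist Nfil3 went the other way, at 26.9, 30.5 and 35.3 CPM at ZT16 and 52.6, 80.9 and 64.5 CPM at ZT4 (-1.09, SE 0.24, adjusted p = 0.00316). The 2 times together give no phase or amplitude of a rhythm. With 1 library left out, 4 of the clock genes lost their call. Per1 did so without ZT16 replicate 3, ZT4 replicate 2 or ZT4 replicate 3 (adjusted p up to 0.0912), and Cry2 without ZT16 replicate 2, ZT16 replicate 3 or ZT4 replicate 3 (up to 0.08). Dbp lost it without ZT4 replicate 1 or ZT4 replicate 2 (up to 0.0595), and Nr1d2 in every such fit but the one without ZT4 replicate 3 (up to 0.155).

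**Figure D2:**
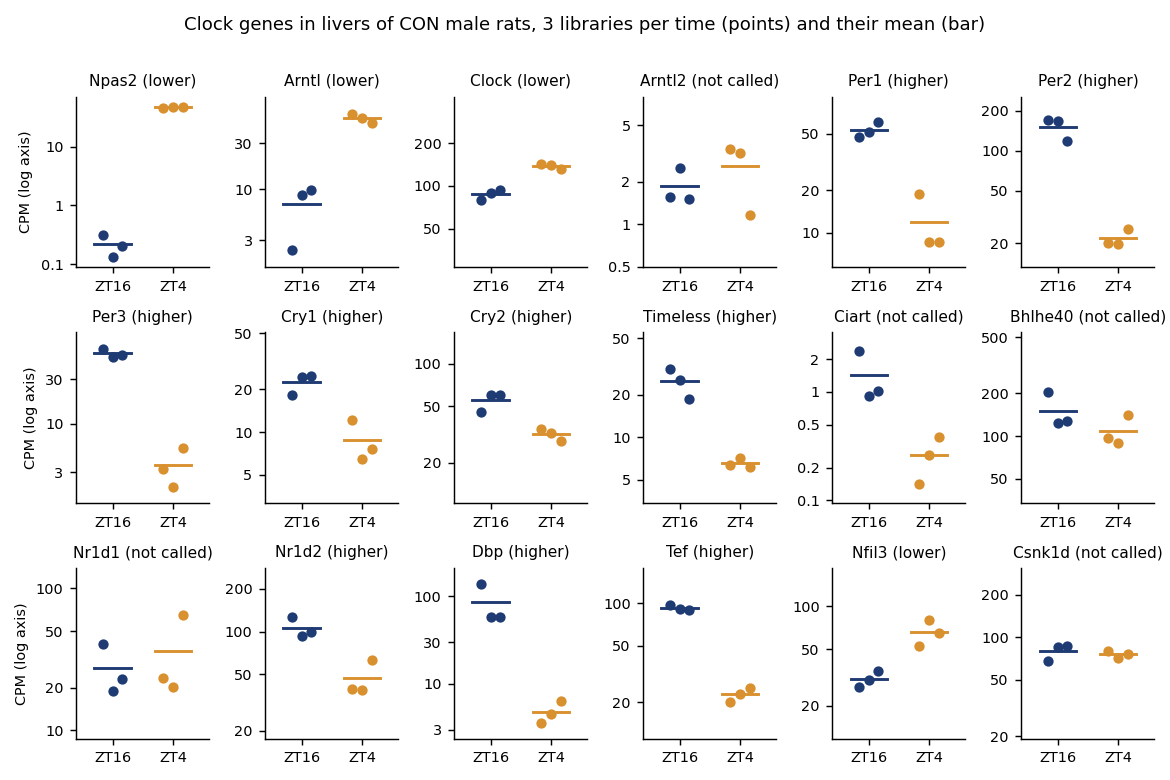
CPM on log axes of 18 clock genes in the 3 libraries at ZT16 (blue points, left) and the 3 at ZT4 (orange points, right), with the mean of each time as a bar and the call in brackets. The activators Npas2, Arntl and Clock lie lower at ZT16 and the period genes, Dbp and Tef higher, while the groups of Nr1d1 overlap between 18.8 and 64.5 CPM.

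Promoter sequences of these genes show where letters of the clock's binding motifs occur. RefSeq promoters of the GRCr8 assembly, from 250 bases before to 50 bases after an annotated start, were found for 32 of 37 genes, 3 of them under another name. They were searched on both strands for the E-box CACGTG, the D-box TTATGTAA or TTACGTAA, and the ROR element TAGGTCA or TGGGTCA. Of all 33469 promoters in the table, 6.42% hold that E-box, 1.01% a D-box and 6.6% a ROR element. Of the 8832 promoters there that carry the symbol of a tested gene, 8.99% hold the E-box, 0.657% a D-box and 5.33% a ROR element. These are shares of promoters, so a gene with several promoters enters several times. Genes under another name in RefSeq, such as Arntl, are left out of them. The promoters below, printed in the gene's own direction with the motif in capitals, belong to genes of each clock role. That of Arntl (chr1:176766078-176766377, plus strand; Bmal1 in RefSeq) holds a ROR element, and that of Tef (chr7:115206577-115206876, plus strand) holds an E-box. Per2 (chr9:99496944-99497243, minus strand) holds a D-box, Ciart (chr2:186112197-186112496, minus strand) 3 E-boxes, and 1 of the 2 promoters of Nr1d1 (chr10:84229405-84229704, minus strand) an E-box.
Arntl: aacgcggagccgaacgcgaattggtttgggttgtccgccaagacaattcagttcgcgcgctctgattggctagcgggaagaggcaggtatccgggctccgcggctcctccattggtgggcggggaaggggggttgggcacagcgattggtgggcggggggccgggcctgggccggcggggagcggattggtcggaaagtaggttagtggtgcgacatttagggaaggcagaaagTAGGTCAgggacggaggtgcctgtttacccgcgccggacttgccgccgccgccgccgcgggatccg
Tef: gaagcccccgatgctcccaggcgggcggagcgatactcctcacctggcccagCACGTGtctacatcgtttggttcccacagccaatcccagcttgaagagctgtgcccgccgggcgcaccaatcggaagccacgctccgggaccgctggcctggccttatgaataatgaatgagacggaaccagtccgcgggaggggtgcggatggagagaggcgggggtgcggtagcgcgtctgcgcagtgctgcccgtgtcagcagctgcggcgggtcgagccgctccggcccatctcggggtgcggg
Per2: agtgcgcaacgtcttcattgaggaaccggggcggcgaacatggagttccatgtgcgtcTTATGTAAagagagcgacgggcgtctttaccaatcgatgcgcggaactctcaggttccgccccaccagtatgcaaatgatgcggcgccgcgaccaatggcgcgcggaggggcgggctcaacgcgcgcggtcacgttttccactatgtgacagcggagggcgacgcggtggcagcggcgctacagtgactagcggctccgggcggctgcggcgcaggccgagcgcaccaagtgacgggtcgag
Ciart: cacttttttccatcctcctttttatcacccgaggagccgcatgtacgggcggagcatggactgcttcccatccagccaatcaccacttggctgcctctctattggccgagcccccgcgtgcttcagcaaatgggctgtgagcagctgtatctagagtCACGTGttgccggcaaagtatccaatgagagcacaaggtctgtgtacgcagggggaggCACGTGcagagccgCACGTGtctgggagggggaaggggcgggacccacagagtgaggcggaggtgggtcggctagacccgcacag
Nr1d1: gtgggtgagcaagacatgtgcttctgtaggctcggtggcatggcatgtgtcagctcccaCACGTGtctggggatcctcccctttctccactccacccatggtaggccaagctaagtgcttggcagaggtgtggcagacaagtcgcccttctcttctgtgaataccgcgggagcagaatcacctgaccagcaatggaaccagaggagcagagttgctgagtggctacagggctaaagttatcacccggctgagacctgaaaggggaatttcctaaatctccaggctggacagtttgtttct
The ROR element of Arntl begins 16 bases before the annotated start, and the E-boxes of Ciart begin 93, 35 and 21 bases before it. Shorter stretches, the motif with 10 bases on each side, show the other matches among the named genes. The E-box of Bhlhe40 begins at -220 (chromosome 4) and that of Fras1 at -178 (chromosome 14). The D-box of Nrg4 begins at -231 (chromosome 8) and the ROR element of Atp2b2 at -228 (chromosome 4), and these read TTATGTAA and TGGGTCA on the other strand.
Bhlhe40: cgttgtccaaCACGTGagactcatgt
Fras1: tccccttcccCACGTGactctctgga
Nrg4: ctccacaaacTTACATAAcatttatgag
Atp2b2: ggggactttcTGACCCAtgaacagaaa
Of 16 genes higher at ZT16 with a promoter in the table, 2 hold an E-box, 2 a D-box and 0 a ROR element. Of 10 lower genes, 0 hold an E-box, 0 a D-box and 2 a ROR element, and of 6 genes not called 3 hold an E-box. These counts are descriptions of 300 bases per promoter, and a gene counts once if any of its promoters holds the motif. Where the window held no match, as in Npas2, Dbp, Per1 and Per3, these letters are not in it, and nothing follows for the factors.

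Among known output genes of the liver clock 7 of 14 tested were higher at ZT16 and 1 was lower (57.1% called, against 5.35% of all genes). Their median log2 fold change was 1.06, against 0.01 over all genes. Por, the reductase that hands electrons to microsomal cytochromes P450, had 497, 493 and 540 CPM at ZT16, against 77.5, 89.0 and 77.7 CPM at ZT4. Its groups lay far apart, and the log2 fold change was 2.65 (SE 0.43, adjusted p = 8.49e-05). Alas1, the first and rate-limiting enzyme of heme synthesis in liver, was 527, 330 and 361 CPM at ZT16 and 140, 159 and 177 CPM at ZT4 (1.35, SE 0.32, adjusted p = 0.00664). Wee1, a kinase that holds cells before mitosis, had 18.4, 15.4 and 12.7 CPM at ZT16, against 3.13, 4.89 and 2.46 CPM at ZT4 (2.14, SE 0.39, adjusted p = 0.000354). Usp2, a deubiquitinase, rose by 3.47, to 42.2, 43.5 and 42.3 CPM at ZT16, against 6.12, 3.30 and 2.20 CPM at ZT4 (adjusted p = 0.000231). Higher as well were Noct, a phosphatase of NADPH (2.86), Cys1, the cystin gene (2.62, and 3.53 without ZT4 replicate 3), and Gys2, the liver glycogen synthase (0.80). The member that was lower is Tubb2a, a beta tubulin, with 2.83, 7.24 and 5.79 CPM at ZT16 and 25.5, 32.5 and 26.8 CPM at ZT4 (-2.39, SE 0.50, adjusted p = 0.0018). Klf9, Klf10 and Slc45a3 had -0.20, -0.05 and -0.02 and were not called. The count of 7 was 4 without ZT16 replicate 1, where Alas1 was among the calls lost (adjusted p = 0.0582).

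Outside the clock lists the largest called rises were those of Nrg4 and Fras1. Nrg4, a growth factor of the neuregulin family that acts on liver through ErbB receptors, had 20.3, 21.4 and 17.8 CPM at ZT16 and 0.142, 1.98 and 0.388 CPM at ZT4. It showed the largest named rise, 4.53 (SE 0.78, adjusted p = 0.00016), and ZT4 replicate 2 carried 15 of its 19 reads at that time. Without that library the rise was 6.13. Fras1, an extracellular matrix protein, was 117, 149 and 101 CPM at ZT16, against 9.96, 9.77 and 2.72 CPM at ZT4 (4.04, SE 0.57, adjusted p = 1.17e-05). Zfp354a, a zinc finger protein, had 188, 176 and 212 CPM at ZT16, against 26.5, 11.2 and 11.9 CPM at ZT4 (3.55, adjusted p = 0.00196). Both were several times lower in every liver at ZT4. Nat8, an acetyltransferase of the endoplasmic reticulum that makes mercapturic acids, rose by 3.36, to 37.5, 27.1 and 24.6 CPM at ZT16, against 2.99, 4.23 and 1.42 CPM at ZT4. Map2k6, which activates p38 kinases, rose by 3.22. Slc12a3, a sodium chloride cotransporter, and Ptk7, a receptor with an inactive kinase, were higher with so few reads at ZT4 (3 and 7 over the 3 livers) that their read ratios carried wide intervals, at 15.3 (95% counting interval 4.95 to 76.9) and 9.79 (4.52 to 25.2). Slc12a3 lost its call without ZT16 replicate 3, ZT4 replicate 1 or ZT4 replicate 2 (adjusted p up to 0.0932), and Ptk7 without ZT16 replicate 2, ZT16 replicate 3, ZT4 replicate 1 or ZT4 replicate 2 (up to 0.189). Without ZT4 replicate 3 their log2 fold changes were 4.63 and 5.18, against 3.78 and 3.17 with all libraries.

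The 10 largest called falls included the transporter genes Slc34a2 and Slc6a6. Slc34a2, a sodium phosphate cotransporter, had 9.29, 16.7 and 11.0 CPM at ZT16, against 85.5, 127 and 143 CPM at ZT4 (-3.26, SE 0.68, adjusted p = 0.00183). Chka, the choline kinase that starts phosphatidylcholine synthesis, was 13.1, 18.3 and 21.2 CPM at ZT16 and 120, 133 and 170 CPM at ZT4 (-3, SE 0.45, adjusted p = 2.89e-05). Slc6a6, the taurine transporter, had 3.31, 4.08 and 3.05 CPM at ZT16 and 20.2, 54.8 and 28.1 CPM at ZT4 (-3.31, adjusted p = 0.000675). Each of these 3 genes was several times lower in every liver at ZT16 than in any at ZT4. Atp2b2, a calcium pump of the plasma membrane, was 2.52, 3.16 and 3.76 CPM at ZT16 and 33.4, 35.8 and 30.3 CPM at ZT4 (-3.37). Acpp, an acid phosphatase, fell by 3.61, and Ptk6, a tyrosine kinase, fell by 3.84. St8sia1, the sialyltransferase that makes ganglioside GD3, fell by 3.81, and Rprm, linked to cell cycle arrest, fell by 3.85 (-4.55 without ZT16 replicate 1). The last 3 were low genes, at 0.945 CPM or less in each liver at ZT16. The calls of all 10 largest falls, Npas2 and Arntl included, held in each fit that left out 1 library.

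Genes of glucose handling showed changes in both directions. Of 24 tested in the list of glycolysis, fructose and glycogen, 5 were higher and 2 lower (29.2% called, against 5.35% of all genes), with a median of 0.35. Gckr, a regulator of liver sugar metabolism, was lower, at 43.9, 74.9 and 93.9 CPM at ZT16 and 265, 262 and 296 CPM at ZT4 (-1.95, SE 0.29, adjusted p = 1.8e-05). The livers of the 2 times did not overlap for this gene. Pfkfb1, the bifunctional enzyme that sets fructose 2,6-bisphosphate, was 86, 122 and 145 CPM at ZT16, against 26.6, 18.8 and 32.3 CPM at ZT4 (2.19, adjusted p = 0.00706). Ppp1r3b, which brings a phosphatase to glycogen, rose by 1.09, Gys2 by 0.80 and the glucose transporter gene Slc2a2 by 0.78, while Pygl, the phosphorylase that breaks glycogen down, fell by 0.46. In gluconeogenesis 2 of 14 were higher and 0 lower (14.3% called): Gpt2, an alanine aminotransferase (0.79), and Slc37a4, the glucose 6-phosphate transporter (0.82). G6pc, the glucose 6-phosphatase, spread widely, at 88.6, 259 and 532 CPM at ZT16 and 1240, 292 and 1090 CPM at ZT4 (-1.57, adjusted p = 0.143). Pfkfb1 lost its call without ZT4 replicate 2 (adjusted p = 0.0545). Ppp1r3b, Gpt2 and Slc37a4 each lost it in 3 of 6 such fits (up to 0.124), without ZT4 replicate 2, ZT4 replicate 3 and, for Ppp1r3b, ZT16 replicate 2, or for the others ZT16 replicate 3. Slc2a2 kept its call only without ZT4 replicate 3 and Pygl only without ZT4 replicate 2 (adjusted p up to 0.27 in the other fits).

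Genes of cholesterol synthesis and of bile acids were called in both directions. Of 25 genes of cholesterol synthesis 1 was higher and 1 lower (8% called, against 5.35% of all genes), with a median of -0.10. Dhcr7, which makes the last step to cholesterol, was the lower one, with 82.2, 101 and 72.7 CPM at ZT16 and 178, 185 and 160 CPM at ZT4 (-1.03, SE 0.23, adjusted p = 0.00359). Hmgcs1, an early enzyme of the pathway, had a lower level at ZT16 in all 3 livers, at 296 to 493 CPM against 586 to 764 CPM at ZT4, but missed the threshold (-0.88, adjusted p = 0.114). Of 21 genes of bile acid synthesis and transport 2 were higher and 2 lower (19% called). Cyp7a1, the rate-limiting enzyme of bile acid synthesis, had 250, 335 and 312 CPM at ZT16, against 80, 58.4 and 44.5 CPM at ZT4 (2.30, SE 0.67, adjusted p = 0.0321). Cyp27a1, the sterol 27-hydroxylase, rose by 0.63 (adjusted p = 0.0277). The 2 lower genes export into bile. Abcb11, the bile salt pump, was 690, 706 and 664 CPM at ZT16 and 1160, 1080 and 1100 CPM at ZT4 (-0.70, SE 0.14, adjusted p = 0.00118). Abcb4, which moves phosphatidylcholine, was 54.8, 48.4 and 61.2 CPM at ZT16 and 146, 132 and 112 CPM at ZT4 (-1.25, SE 0.21, adjusted p = 0.000123). Cyp7a1 is made mostly in the pericentral zone, whose markers summed to 2340 to 3220 CPM at ZT16 and 1290 to 2130 CPM at ZT4. Much of that sum was Cyp2e1, at 1470 to 2430 CPM at ZT16 and 690 to 1220 CPM at ZT4, which was not called (adjusted p = 0.0748). Of the 9 markers tested 1 was called higher and 3 did not overlap between the times. The part of these markers in the rise of Cyp7a1 was not tested. Cyp7a1 kept its call only without ZT16 replicate 1 (adjusted p up to 0.15 in the other fits), and Cyp27a1 only without ZT16 replicate 1 or ZT16 replicate 2 (up to 0.284).

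In lipid metabolism the called genes were of both signs. Of 22 genes of fatty acid and triglyceride synthesis 1 was higher and 2 lower (13.6% called, against 5.35% of all genes), with a median of -0.33. Lpin2, a phosphatidic acid phosphatase on the way to triglycerides, had 166, 259 and 335 CPM at ZT16, against 106, 75.5 and 74.7 CPM at ZT4 (1.57, SE 0.33, adjusted p = 0.00186). Insig2, which retains the SREBP precursors in the endoplasmic reticulum, was 41.6, 63.4 and 73.3 CPM at ZT16, against 199, 196 and 141 CPM at ZT4 (-1.58, SE 0.31, adjusted p = 0.000948). Both held with any single library left out. Agpat2, an acyltransferase of the same pathway, fell by 0.57 (adjusted p = 0.041) and overlapped between the times. Of 37 genes of fatty acid oxidation and PPAR alpha targets 1 was higher and 3 lower (10.8% called), with a median of -0.18. Ppara, the nuclear receptor itself, was 82.8, 109 and 136 CPM at ZT16 and 66.7, 44.8 and 48.2 CPM at ZT4 (1.04, adjusted p = 0.0111). Plin2, which coats lipid droplets, had 102, 130 and 168 CPM at ZT16 and 308, 277 and 365 CPM at ZT4 (-1.24, SE 0.30, adjusted p = 0.0069). Pdk4, which turns off pyruvate dehydrogenase, was 23.9, 55.4 and 74.8 CPM at ZT16 and 143, 113 and 187 CPM at ZT4 (-1.51, adjusted p = 0.0276). Ppara and these 2 genes, which its protein is known to activate, had opposite signs. Bdh1, the ketone body dehydrogenase, fell by 0.59, while Cpt1a, which brings fatty acids into mitochondria, was not called at 0.40. Plin2 lost its call without ZT16 replicate 1 (adjusted p = 0.06), and Bdh1 without ZT16 replicate 3 (0.0719). Ppara lost it without ZT16 replicate 3, ZT4 replicate 2 or ZT4 replicate 3 (up to 0.107). Pdk4 lost it in all such fits but those without ZT16 replicate 3 or ZT4 replicate 2 (up to 0.162), and Agpat2 in all but those without ZT16 replicate 3 or ZT4 replicate 3 (up to 0.254).

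**Figure D3:**
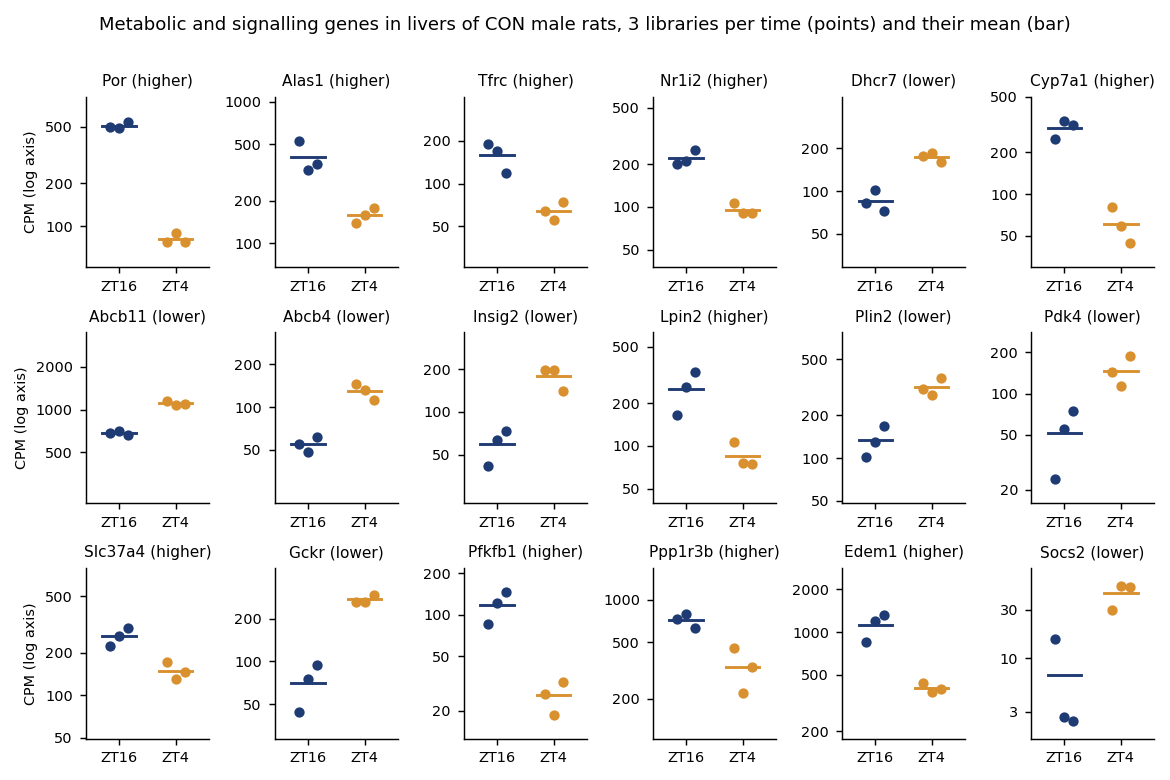
CPM on log axes of 18 metabolic and signalling genes in the 3 libraries at ZT16 (blue points, left) and the 3 at ZT4 (orange points, right), with the mean of each time as a bar and the call in brackets. Por lies at 493 to 540 CPM at ZT16 against 77.5 to 89.0 CPM at ZT4, and Pfkfb1 is higher and Gckr lower at ZT16.

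In amino acid, drug and iron metabolism most calls were higher at ZT16. Of 25 genes of amino acid breakdown and the urea cycle 3 were higher and 1 lower (16% called, against 5.35% of all genes). Arg1, the arginase that ends the urea cycle, had 1500, 1350 and 1280 CPM at ZT16, against 790, 812 and 655 CPM at ZT4 (0.87, SE 0.23, adjusted p = 0.0143). Prodh, which breaks down proline, rose by 1.02, and Nags, which makes the activator of carbamoyl phosphate synthetase, by 0.52, while Hgd, of tyrosine breakdown, fell by 0.55. In xenobiotic metabolism 2 of 38 were higher and 1 lower (7.89% called, near the share over all genes). Nr1i2, the drug sensor PXR, was 200, 212 and 250 CPM at ZT16 and 106, 90.5 and 89.9 CPM at ZT4 (1.21, SE 0.20, adjusted p = 8.49e-05), and Por was the other. Cyp2c12, known in the rat as a female-predominant P450, was 61.9, 50.8 and 33.2 CPM at ZT16 and 97.5, 157 and 188 CPM at ZT4 (-1.60, adjusted p = 0.0432). In heme and iron genes 2 of 18 were higher (11.1%), Alas1 and Tfrc, the transferrin receptor, at 190, 169 and 118 CPM at ZT16 and 63.7, 55.5 and 74.2 CPM at ZT4 (1.30, SE 0.30, adjusted p = 0.0043). Nr1i2 and Tfrc held with any 1 library left out. Arg1 lost its call without ZT16 replicate 1 or ZT4 replicate 3 (adjusted p up to 0.0955), and Prodh without ZT16 replicate 3, ZT4 replicate 2 or ZT4 replicate 3 (up to 0.143). Nags kept it only without ZT4 replicate 1 (up to 0.261), Hgd only without ZT16 replicate 2 (up to 0.315) and Cyp2c12 only without ZT4 replicate 1 (up to 0.194).

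Stress and hormone lists held genes of both signs. In the unfolded protein response 3 of 27 were higher and 2 lower (18.5% called, against 5.35% of all genes). Edem1, which sends misfolded glycoproteins to degradation, had 852, 1190 and 1320 CPM at ZT16, against 440, 379 and 398 CPM at ZT4 (1.47, SE 0.26, adjusted p = 0.000214). Herpud1, of the same degradation route, was 235, 237 and 306 CPM at ZT16 and 139, 109 and 194 CPM at ZT4 (0.81, adjusted p = 0.00596). The factor gene Atf4 was lower, at 87.1, 76.8 and 76.1 CPM at ZT16 and 124, 122 and 142 CPM at ZT4 (-0.69, SE 0.15, adjusted p = 0.00304). Sec61b, of the channel into the endoplasmic reticulum, rose by 0.58 and Chac1, which breaks down glutathione, fell by 1.89, both near the threshold (adjusted p = 0.043 and 0.0498). The chaperone Hspa5, central to this response, had 0.08 and was not called. Of 23 heat shock genes 2 were higher (8.7%), the co-chaperones Hsph1 (0.99, adjusted p = 0.00895) and Dnajb1 (0.87, adjusted p = 0.0034), and the median was 0.39. Cirbp, a protein made in the cold, fell by 0.78 (adjusted p = 0.0236), the only call among 3 cold-inducible genes. Among 17 glucocorticoid targets (17.6% called) 2 were higher, Per1 and Tsc22d3, and 1 was lower, the kinase gene Sgk1 (-0.96). Tsc22d3 was 64.6, 56.3 and 84.5 CPM at ZT16 and 37.3, 19.9 and 17.3 CPM at ZT4 (1.47, SE 0.31, adjusted p = 0.00192), and was not called with the 6 libraries fitted alone (adjusted p = 0.0535). Socs2, an inhibitor of growth hormone signalling, had 15.4, 2.63 and 2.44 CPM at ZT16 and 29.6, 51.2 and 50.0 CPM at ZT4 (-2.75, SE 0.63, adjusted p = 0.00486). ZT16 replicate 1 lay between the other livers at its time and those at ZT4 for this gene, and without it the log2 fold change was -4.10. Socs2 was not called with the 12 CON libraries or with the 6 libraries fitted alone (adjusted p up to 0.136). Without ZT16 replicate 2 or ZT16 replicate 3 Socs2 lost its call (adjusted p up to 0.0576), as did Herpud1 without ZT16 replicate 3 or ZT4 replicate 2 (up to 0.0851) and Hsph1 without ZT4 replicate 1 or ZT4 replicate 3 (up to 0.0626). Sec61b lost it in every such fit (up to 0.193) and Chac1 in 5 of 6 (up to 0.247). Cirbp lost it without ZT16 replicate 1, ZT16 replicate 2 or ZT4 replicate 3 (up to 0.153), and Sgk1 in every such fit but the one without ZT4 replicate 2 (up to 0.143).

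Some of the remaining lists had no called member, against 5.35% called of all genes. By edgeR's test 0 genes were called of 25 in ribosome biogenesis and 0 of 21 acute phase and plasma proteins, though 11 of these 21 did not overlap and their median was -0.22. Fga and Fgb, chains of fibrinogen, had -0.72 and -0.62 and were called when the 6 libraries were fitted alone. In oxidative phosphorylation 1 of 33 was lower (3.03%), Sdha of complex II (-0.32, adjusted p = 0.0325). Of 36 cytosolic ribosomal proteins 2 were higher (5.56%), among them Rps10 (1.21), at 21.1 CPM or less. Such genes have many near-identical copies, Rps6, Rps9 and Rps19 had no read in the 6 libraries, and these counts are uncertain. Of 24 interferon-stimulated genes 1 was higher and 3 lower, and their 16.7% lay above the share over all genes. Stat2, which carries interferon signals to the nucleus, was 195, 168 and 156 CPM at ZT16 and 98.0, 99.4 and 106 CPM at ZT4 (0.78, SE 0.12, adjusted p = 3.03e-05), and Psmb9, a subunit of the immunoproteasome, fell by 1.09 (adjusted p = 0.00042). The RNA sensor Ddx58 and the interferon-induced Ifit2 fell by 0.62 and 0.67. In cell division 2 of 22 were higher (9.09%), Wee1 and Tk1, a thymidine kinase (1.10), and among 16 immediate early genes 2 were lower (12.5%), Jund (-0.86) and Btg2 (-1.11). Ddx58 lost its call without ZT4 replicate 3 (adjusted p = 0.0691), and Ifit2 in all such fits but those without ZT16 replicate 1 or ZT4 replicate 1 (up to 0.0937). Without ZT16 replicate 1, ZT16 replicate 2, ZT4 replicate 2 or ZT4 replicate 3 Sdha lost its call (adjusted p up to 0.143). Jund lost it without ZT4 replicate 3 (0.0974), and Btg2 without ZT16 replicate 3 or ZT4 replicate 2 (up to 0.0689).

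Of 24 genes of autophagy and the lysosome 2 were higher (8.33% called, against 5.35% of all genes), Map1lc3b, which builds autophagosomes (0.58), and Tfeb, a regulator of lysosomal genes (0.56), with adjusted p of 0.0216 and 0.0388. Of 19 insulin and FOXO responsive genes 1 was higher and 1 lower, Socs2 (10.5% called). Of 11 actin and SRF targets 1 was lower (9.09%), Tpm4, a tropomyosin (-0.64, adjusted p = 0.047). Tfeb lost its call in every fit that left out 1 library (adjusted p up to 0.153), Tpm4 in all but the one without ZT16 replicate 2 (up to 0.268), and Map1lc3b in all but those without ZT16 replicate 1 or ZT16 replicate 2 (up to 0.326).

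**Figure D4:**
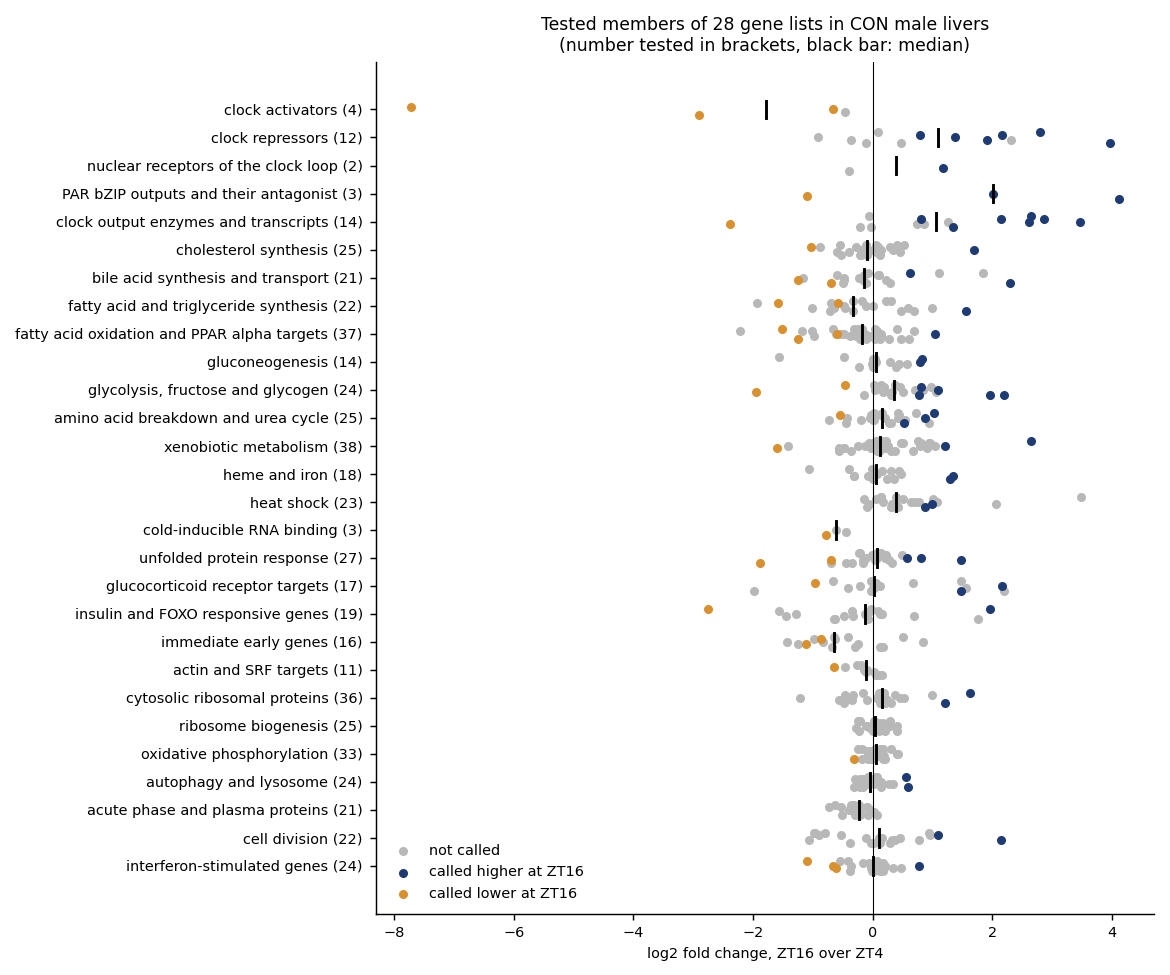
Log2 fold change of ZT16 over ZT4 (horizontal axis) for the tested members of 28 gene lists (rows, number tested in brackets), with members called higher in blue, called lower in orange and not called in grey, and the median of each list as a black bar. The clock lists run from -7.72 for Npas2 to 4.12 for Dbp, while most members of the metabolic lists lie between -1 and 1.

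CON females gave a time difference measured on other libraries. In them 639 genes were called (5.78%), 2.35% of those tested higher and 3.43% lower. Of the 591 genes called in males, 256 were also called in females in the same direction, 103 higher and 153 lower, and 0 in the opposite one. That is 43.3% of the male calls and 40.1% of the female calls. The sign was shared by 560 of the 591. Per3 was 63.8, 52 and 54.7 CPM in CON males at ZT16 and 3.27, 2.11 and 5.43 CPM at ZT4, while CON females had 75.9, 71.9 and 69.5 CPM at ZT16 and 3.51, 3.64 and 3.03 CPM at ZT4. Both sexes separated the times fully for this gene. The test of the difference between the sexes called 3 genes, 0.0272% of those tested, each with a higher log2 fold change in males. Unadjusted 95% intervals of this difference reached, at the median over genes, 0.58 to each side. Of simulated differences 5.97% were called at 1.5-fold and 49.3% at 2-fold. The small count therefore does not show that the other genes had the same time effect in both sexes. Sorbs3, the adaptor protein vinexin, had 70.7, 79.9 and 87.9 CPM in CON males at ZT16 and 25.6, 23.2 and 22.6 CPM at ZT4 (1.74, SE 0.19, adjusted p = 8.44e-08). In CON females it was 72.9, 55.3 and 48.1 CPM at ZT16 and 40.3, 41.7 and 48.4 CPM at ZT4, and the difference of the time effects was 1.30 (SE 0.26, adjusted p = 0.0365). Rps10 was called as well (1.41, adjusted p = 0.0268), and its counts are uncertain. With the 12 CON libraries fitted alone 0 genes were called, and 1 was called in 8 of the 12 fits that left out 1 library. Sorbs3 lost its call in 10 of the 12 fits that left out 1 library, all but those without CON male ZT16 replicate 1 or CON female ZT16 replicate 1 (adjusted p up to 0.333). Rps10 lost it in 9, keeping it without CON male ZT16 replicate 1, CON male ZT16 replicate 2 or CON male ZT4 replicate 2 (up to 0.351). Timeless had 1.91 in CON males and 0.87 in CON females, a difference that missed the threshold (adjusted p = 0.712).

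Between CON and HFhf males the difference of the time effects had its smallest p for 2 clock genes, Nr1d1 and Nr1d2. The test called 50 genes (0.453%), 20 with a higher (0.181%) and 30 with a lower (0.272%) log2 fold change in CON males. Among them were 8 of the 21 tested clock genes. Such a test picks genes whose time effects lie apart, and for 43 of the 50 they had opposite signs, with 38 called in CON males, 15 in HFhf males and 3 in both. In HFhf males 489 genes in all were called between the times (4.43%), 2.44% higher and 1.99% lower. Dbp was 139, 58.4 and 58.5 CPM in CON males at ZT16 and 3.56, 4.49 and 6.47 CPM at ZT4. In HFhf males it was 14.7, 12.0, 18 and 11.0 CPM at ZT16 and 115, 60.2 and 106 CPM at ZT4. The order of the times was thus reversed between the groups, with a difference of 6.87 (SE 1.31, adjusted p = 0.00342). Nr1d1 overlapped between the times in CON males. In HFhf males it was 2.66, 1.65, 3.70 and 3.22 CPM at ZT16 and 176, 153 and 129 CPM at ZT4, and the difference was 5.35 (SE 0.82, adjusted p = 0.000969), or 6.08 without CON male ZT4 replicate 3. Every HFhf liver lay outside the CON range of 18.8 to 64.5 CPM, below it at ZT16 and above it at ZT4. Per3 had 17.8, 7.65, 20 and 13 CPM in HFhf males at ZT16 and 35, 20.7 and 36.4 CPM at ZT4 (difference 5.03, SE 0.94, adjusted p = 0.00269). Arntl had 31.3, 41.1, 31 and 39.9 CPM in HFhf males at ZT16 and 13.6, 20.5 and 13.3 CPM at ZT4 (difference -4.10, SE 0.84, adjusted p = 0.00886). Npas2 was 3.93, 15.3, 9.66 and 7.46 CPM in HFhf males at ZT16 and 19.8, 27.8 and 18.2 CPM at ZT4 (difference -6.44, SE 1.33, adjusted p = 0.00949), so both times lay between the extremes of CON males. Nr1d2 (2.87), Timeless (2.10) and Nfil3 (-1.53) were the other clock genes called. Metabolic genes among the 50 included Gckr (-1.56), Chka (-2.46) and Insig2 (-1.83), named here after their values were seen.

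For Cry1 and Per2 both groups were higher at ZT16. Cry1 had 33.6, 33.6, 24 and 32.9 CPM in HFhf males at ZT16 and 6.63, 5.39 and 6.82 CPM at ZT4, and its log2 fold change was 1.38 in CON males and 2.29 in HFhf males. That of Per2 was 2.80 in CON males and 1.54 in HFhf males. The difference missed the threshold for both genes (adjusted p = 0.477 and 0.5). St8sia1 was called at -4.22 (adjusted p = 0.0231), and lost its call in 7 of 13 fits that left out 1 library (up to 0.122), among them those without CON male ZT16 replicate 1, ZT16 replicate 3 or ZT4 replicate 1. Without HFhf ZT4 replicate 2 its difference was -5.35. Arntl lost it without CON male ZT16 replicate 1 (0.0569), and the count of 50 was 25 without that library, 28 without HFhf ZT4 replicate 1 or HFhf ZT4 replicate 3, and 63 without HFhf ZT4 replicate 2. HFhf ZT16 replicate 3 carried 125 CPM of the muscle actin Acta1. Without it and 3 female libraries that had stood apart in earlier work the count was 68, and Dbp, Nr1d1, Per3, Arntl, Npas2 and St8sia1 were called.

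In IUGR-HFhf males 1194 genes were called between the times (10.8%), 5.78% higher and 5.03% lower. In the difference from CON males 2 genes were called (0.0181%), both with a higher log2 fold change in CON males. At an unadjusted p under 0.05 edgeR's test gave 1286 genes for this difference, against 972 for that from HFhf males. Sdr42e1, of the short-chain dehydrogenase family, overlapped between the times in CON males, at 62.7, 55 and 40.4 CPM at ZT16 and 40.7, 44.9 and 46.9 CPM at ZT4. In IUGR-HFhf males it was 49.5, 43.9, 50.2 and 37.4 CPM at ZT16 and 68.5, 119 and 126 CPM at ZT4, and the difference was 1.46 (SE 0.25, adjusted p = 0.0058). Irx1, a homeobox factor, had 29.3, 20.5 and 15.3 CPM in CON males at ZT16 and 7.11, 7.92 and 9.05 CPM at ZT4. In IUGR-HFhf males it was 11.7, 11.5, 7.43 and 8.38 CPM at ZT16 and 9.56, 15.4 and 11.0 CPM at ZT4 (difference 1.71, SE 0.34, adjusted p = 0.0331). Of the clock genes 0 were called here, and Nr1d1 was 6.32, 3.46, 14.1 and 8.67 CPM in IUGR-HFhf males at ZT16 and 91.7, 146 and 165 CPM at ZT4 (difference 3.64, SE 0.77, adjusted p = 0.0689). Dbp (5.19, adjusted p = 0.0993), Per3 (3.40, 0.128) and Nr1d2 (1.73, 0.126) missed the threshold too. So did Arntl (-2.44, 0.237) and Npas2 (-4.21, 0.263). Each of these differences had the sign it had against HFhf males, so the lack of calls does not show an unchanged clock. The count of 2 was 36 in DESeq2. It was 0 without CON male ZT16 replicate 1, CON male ZT4 replicate 1 or IUGR-HFhf ZT4 replicate 3, and 1 without CON male ZT16 replicate 2, CON male ZT4 replicate 2 or IUGR-HFhf ZT16 replicate 4. It was 4 without CON male ZT4 replicate 3 or IUGR-HFhf ZT16 replicate 3, and 17 without IUGR-HFhf ZT4 replicate 1. Sdr42e1 lost its call without CON male ZT16 replicate 1, CON male ZT4 replicate 1 or IUGR-HFhf ZT4 replicate 3 (adjusted p up to 0.0663), and Irx1 in 8 of 13 such fits (up to 0.154).

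**Figure D5:**
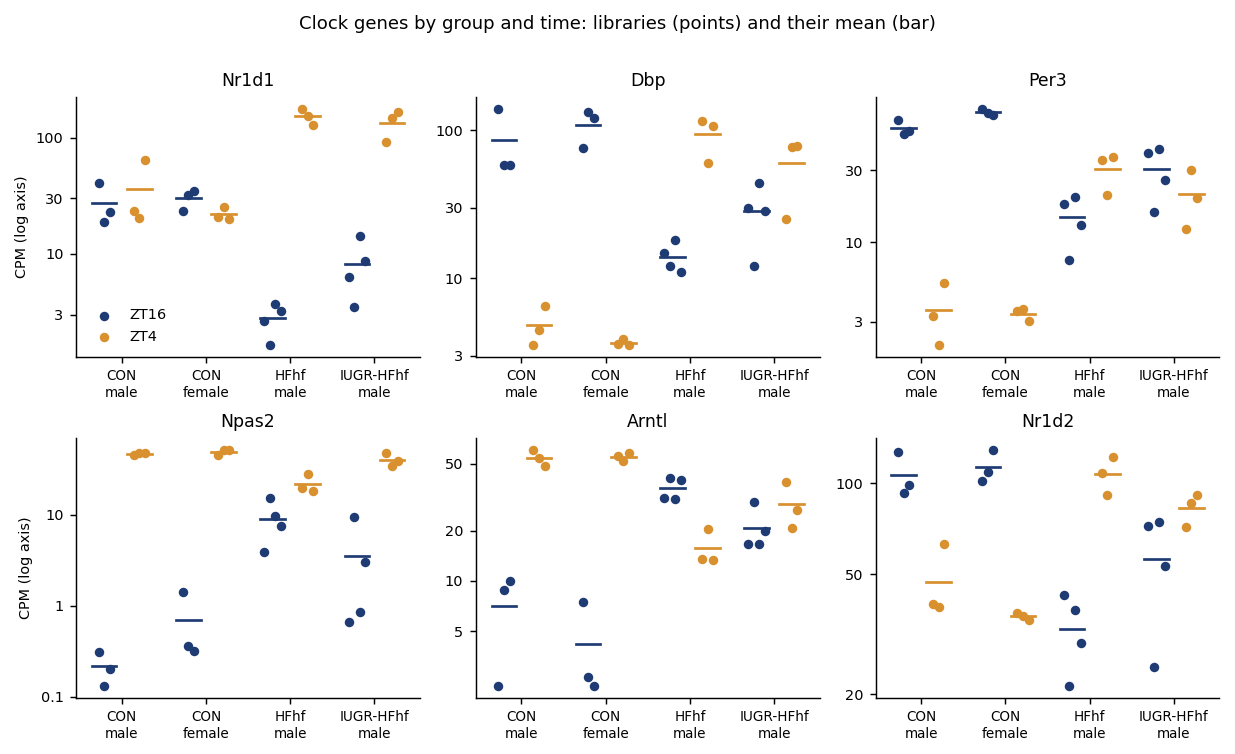
CPM on log axes of 6 clock genes in CON males, CON females, HFhf males and IUGR-HFhf males (left to right), with ZT16 in blue left of ZT4 in orange, libraries as points and means as bars. Npas2 and Arntl are lower at ZT16 in both sexes of CON, while Dbp in HFhf males is lower at ZT16 than at ZT4 and Nr1d1 there falls to 1.65 to 3.70 CPM at ZT16.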

How the data were processed

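RNA from whole rat liver was sequenced with a stranded kit that removes ribosomal RNA on an Illumina HiSeq, per the labels' protocols. The molecule label reads polyA RNA. The organism is rat, although mouse is written in the source label. The authors deposited whole-number read counts per gene for 56 libraries, in 1 table of 17337 symbols. FastQC, STAR, featureCounts of Subread, DESeq2 and the rn6 build are named in the submitters' processing notes, with no versions. Whether counting used strand, and how reads with several matches were counted, is not given in the sources used here, so near-identical, overlapping and antisense genes are uncertain. Of the symbols 26 had been turned into dates and 2 occurred more than once.

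The deposited counts were fitted with edgeR 4.0.16 in R 4.3.3, by its quasi-likelihood test over all 56 libraries in 16 groups of sex, study group and time (TMM scaling, filterByExpr, robust dispersion, 40 residual degrees of freedom), and 11047 genes were tested. P-values were adjusted by Benjamini and Hochberg over all genes tested, with a threshold of 0.05. Contrasts took ZT16 minus ZT4 in CON males, and that difference minus the same one in CON females, HFhf males or IUGR-HFhf males. The labels name no litters and do not say that the libraries came from separate animals, so p-values measure the spread between samples. That spread was estimated for each gene within groups, pooled over all 56 libraries, and not from CON males alone. The pool includes the IUGR-RC group, whose dams received 50% of their calories from gestation day 10. Each SE is the size of the log2 fold change divided by the square root of the F statistic of its test. It is thus approximate, least reliable for genes with few reads at 1 of the times, and the unadjusted 95% intervals rest on it. Intervals of read ratios are exact at 95% and cover counting error only. Alternatives were DESeq2 1.42.0, other scalings, no filter, fewer libraries, stricter thresholds and each library left out in turn. Of 727 list entries 702 matched a symbol and 8 a synonym, and 17 had no match. In counts simulated from these libraries 29.9%, 76.1% and 92.4% of genes changed 1.5-fold, 2-fold and 4-fold between the times were called, and 3 of 10580 unchanged genes. All groups were given the CON male means, and 67, 67 and 66 genes were changed, in CON males at ZT16 alone. Fewer changed genes can make the adjusted p stricter, so the rates may differ in the data. Of 2-fold differences from CON females, HFhf males and IUGR-HFhf males, 49.3%, 49.3% and 47.8% were called.

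Named genes were all clock components, the 10 largest called rises and falls with a mean of at least 1 CPM and no overlap, the 4 list members with the smallest p and up to 2 called in the opposite direction, and the 3 largest called differences of each comparison in each direction. Members named beyond this rule were chosen after their values were seen. The comparison, lists and rule were chosen with earlier results of these data known. Results for some genes are not reported here.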

Additional observations from a re-analysis of the deposited data

Results flagged for a closer look

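In groups of 4 libraries a single library stood apart from the others for 3 of the genes described, by Dixon's test at the 95% level, and chance flags about 1 in 20 groups. The test was run for every clock gene and for the genes named from the HFhf and IUGR-HFhf differences. It took HFhf males and IUGR-HFhf males at ZT16, so a few flags are expected by chance alone. All 3 are HFhf males at ZT16. Replicate 1 had 123 CPM of Clock and 48.3 CPM of Sdr42e1, each above the other 3 livers of its group, and replicate 3 had 24 CPM of Cry1, below the others. Groups of 3 livers, such as CON males at either time, are too small for this test.

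The time difference itself differed between groups for some genes, by a test of that difference. Between CON males and CON females 3 genes passed, among them Rps10 (1.41) and Sorbs3 (1.30), values being the difference of the log2 fold changes, CON males minus the other group. Between CON males and HFhf males 50 genes passed, among them Dbp (6.87), Nr1d1 (5.35), Per3 (5.03), Arntl (-4.10), St8sia1 (-4.22) and Npas2 (-6.44). Between CON males and IUGR-HFhf males 2 genes passed, Irx1 (1.71) and Sdr42e1 (1.46).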

How the results depend on the processing

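The 591 genes called between the times (269 higher, 322 lower) became 899 (431 and 468) with the 12 CON libraries fitted alone, 270 (124 and 146) at an adjusted p under 0.01 and 198 (93 and 105) with at least a 2-fold change. Without scaling beyond the total count 156 were lower. Leaving out 1 library at a time gave 332 to 413 genes, 142 to 201 of them higher and 190 to 217 lower. DESeq2 called 646, of which 571 were shared. The difference from CON females was called for 0 genes in the 12 CON libraries alone, 5 without the IUGR-RC libraries, 1 at an adjusted p under 0.01 and 1 to 3 with a library left out, against 3, and for 736 genes at an unadjusted p under 0.05. The difference from HFhf males was called for 80 genes by DESeq2, 88 in the libraries of the groups compared alone, 116 without the IUGR-RC libraries, 23 at an adjusted p under 0.01 and 25 to 63 with a library left out, against 50. The difference from IUGR-HFhf males was called for 36 genes by DESeq2, 90 in the libraries compared alone, 59 without the IUGR-RC libraries, 23 without 4 libraries that had stood apart, 1 at an adjusted p under 0.01 and 0 to 17 with a library left out, against 2. The cause of these shifts was not tested, except that a stricter threshold calls fewer genes by construction. Nr1d1, not called between the times, had a log2 fold change of -0.40, which ran from -0.78 without CON male ZT16 replicate 1 to 0.33 without CON male ZT4 replicate 3. Of the 97 named results that were called, 47 were called under all settings other than the stricter thresholds. Among the genes described, calls between the times were lost by Agpat2, Hgd, Map1lc3b, Per1, Prodh, Ptk7 and Socs2 in the 12 CON libraries alone, and by Agpat2, Herpud1, Hgd, Pdk4, Prodh, Pygl, Sdha, Socs2, Tfeb and Tsc22d3 in the 6 libraries alone. Without scaling Agpat2, Chac1, Cirbp, Clock, Hgd, Ifit2, Nags, Pygl, Sdha, Sgk1, Tfeb and Tpm4 lost theirs, and without the filter Agpat2, Chac1, Cyp2c12, Hgd, Nags, Nr1d2, Pygl, Sdha, Sec61b, Tfeb and Tpm4. Tfeb was not called by DESeq2, Ptk7 without the IUGR-RC libraries, nor Cyp2c12 without the 4 libraries. The difference of Sorbs3 from CON females was not called without scaling, nor that of St8sia1 from HFhf males in the compared libraries alone. No paired analysis was possible because the libraries' titles share no replicate numbers between the times. With 3 livers at each time, depths of 5554976 to 9049458 reads limit what low genes can show.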

Other observations

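Arntl2, the relative of BMAL1 that overlapped between the times in CON males at 1.52 to 2.50 CPM at ZT16 and 1.16 to 3.41 CPM at ZT4, had no read in any of the 6 CON female libraries. It was detected in all 14 libraries of HFhf and IUGR-HFhf males. This gene was picked out after its values were seen, and the difference between the sexes was not tested.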
